A study of Capra hircus with 10 samples.

Results

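Germ cell and piRNA pathway genes were followed in whole goat ovaries of the luteal and follicular phases. The set was named by symbol: DDX4, DAZL, MAEL, PIWIL1, PIWIL2, TDRD1, TDRD9, SYCP3, SOHLH1 and SOHLH2. Of these 10 genes, 9 have a protein-coding row in the deposited table, out of 20587 gene symbols in all, and SOHLH2, which has no row, was dropped. Each of the 9 genes is represented by 1 transcript, so the value of the gene is the value of that transcript. The study collected ovaries of Anhui white goats from a slaughterhouse, 5 of the luteal and 5 of the follicular phase. The labels name no treatment, 1 RNA library was made per ovary, and the sources used here give no age. Total RNA was depleted of ribosomal RNA and sequenced with strand kept. The sources do not tie the ovaries to separate goats, so the p-values measure the spread between these ovaries.

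In the adult ovary the only germ cells are oocytes, most of them held in small resting follicles. Oocytes enter meiosis before birth and stop in prophase, so genes of chromosome pairing act mainly in the fetal ovary. The piRNA pathway protects germ cells from transposons: PIWI proteins carry small RNAs (piRNAs) that guide the silencing of transposon transcripts, and Tudor domain proteins serve as scaffolds for the PIWI proteins. The pathway is best known from the testis.

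Values are FPKM, a measure of fragments per transcript that corrects for transcript length and library size. Oocytes make up a small part of a whole ovary, and fewer oocytes or less RNA per oocyte cannot be told apart in such bulk samples. The fragment totals per ovary are unknown, but low FPKM values move in whole steps, from which the relative depth of the ovaries was estimated. Relative to follicular phase ovary 1, depth ran from 0.677 to 1.02 over the other follicular phase ovaries and from 0.668 to 0.768 over the luteal phase ovaries. The shallowest libraries of the phases were follicular phase ovary 5 (0.677) and luteal phase ovary 3 (0.668). As a check of the phase labels, all 7 tested corpus luteum markers were higher in the luteal phase with no overlap between the phases. STAR, which brings cholesterol into mitochondria for progesterone synthesis, averaged 2651 ± 507 FPKM in the luteal and 16.6 ± 5.58 FPKM in the follicular phase (SD, n = 5 each).

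All 9 genes were expressed at low levels, and none was listed at 0 in any ovary. MAEL, a conserved component of the piRNA pathway, had the highest mean over the 10 ovaries, 2.60 FPKM, and PIWIL1 the lowest, 0.217 FPKM. The mean FPKM of MAEL lay above that of 29.9% of all genes tested, and that of PIWIL1 above 5.04%. Between these came SOHLH1 (1.10 FPKM), TDRD1 (0.866), PIWIL2 (0.734), TDRD9 (0.716), DDX4 (0.575), DAZL (0.324) and SYCP3 (0.239). FPKM is scaled by length, so these levels can be compared between genes. MAEL was above SOHLH1 in 10 of 10 ovaries, by 1.33 ± 0.68 on the log2 scale (SD, n = 10). DDX4 was above DAZL in 9 of 10, by 0.59 ± 0.45. The other neighbours in this order differed by less than 1 SD over the ovaries, with mean differences of -0.10 to 0.42 on the log2 scale and SDs of 0.31 to 0.86. SOHLH1 was above TDRD1 in 8 of 10 ovaries, by 0.26 ± 0.31. No test was made on this order.

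**Figure D1:**
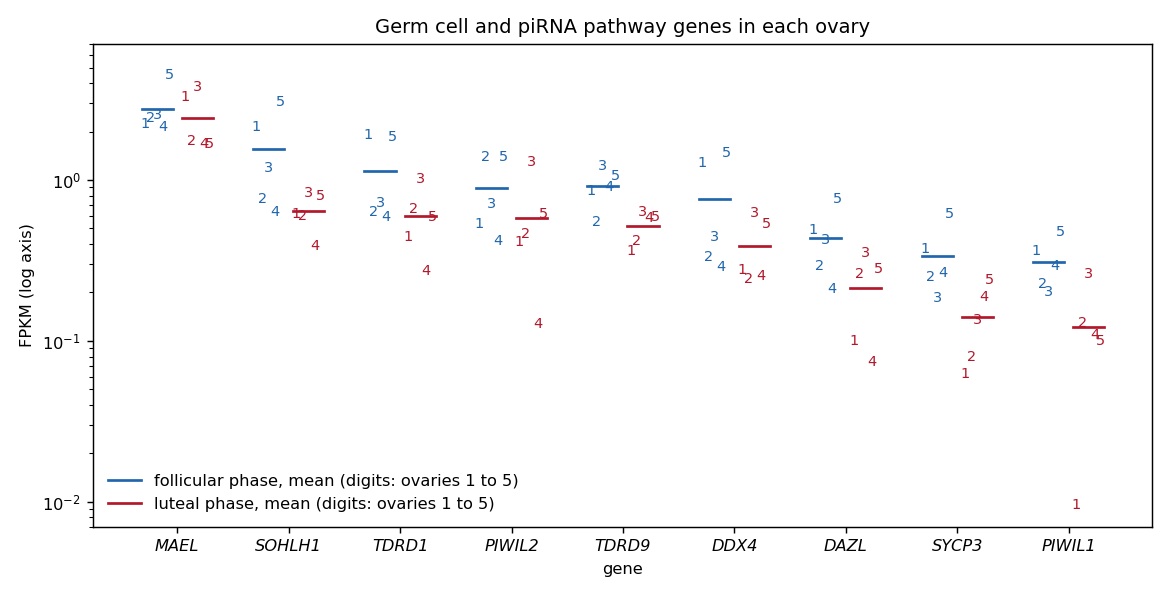
FPKM (log axis) of the 9 genes in each ovary; each digit is 1 ovary with its number, blue for the follicular and red for the luteal phase, and each line is the mean of 5 ovaries. The phases overlap for every gene, and follicular phase ovary 5 is the highest of its phase for 7 of 9 genes.

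The comparison asked whether germ cell transcripts differ between the phase in which follicles grow and the phase dominated by the corpus luteum. Of the 9 genes, 3 (TDRD9, PIWIL1 and SYCP3) fell in the luteal phase at an adjusted p under 0.05 by limma, with log2 fold changes of -0.71 to -0.95. The other 6, the germ cell markers DDX4 and DAZL among them, did not pass the test. As deposited, 9 of 9 genes had a lower mean in the luteal phase, with a median log2 fold change of -0.75 against -0.14 over all 15359 genes tested, and this direction held for every gene after median, quantile and TPM scaling. Setting the ovaries to a common oocyte marker level adds 0.97 to the log2 fold change of every gene, which by construction puts the median of the 9 genes at 0.22 and that of all genes at 0.83. Among all genes 62% had a lower value in the luteal phase and 27.8% were called in that direction, beside 3 of 9 here (33.3%), which is close to that background. An unadjusted p under 0.05 was reached by 5 of 9 genes, against 52.2% of all genes. Phases that did not overlap, with the follicular phase higher, were found for 17.2% of all genes (28.4% in either direction) and for 0 of the 9. Genes of the same abundance, with means of 0.217 to 2.60 FPKM, were called lower in the luteal phase in 25.6% of cases (38.3% in either direction) and had a median log2 fold change of -0.24. Their median standard error was 0.24 on the log2 scale. For the 9 genes it was 0.34. All 9 reached 0.1 FPKM in at least 8 of 10 ovaries and entered the test. The count of 3 moved with single ovaries, as adjusted p-values crossed the threshold: it was 4 without follicular phase ovary 2 or 4, 1 without follicular phase ovary 1, follicular phase ovary 5 or luteal phase ovary 2, and 0 by limma without luteal phase ovary 1, where 4 genes had an unadjusted p under 0.05. Without that ovary the median log2 fold change of the 9 genes was -0.65, with TDRD9 at -0.61, PIWIL1 at -0.72 and SYCP3 at -0.71. The count was 1 on the TPM scale. The size of the log2 fold changes depended on the pseudocount, with a median over the 9 genes of -0.85 at 0.01 and -0.26 at 1.

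**Figure D2:**
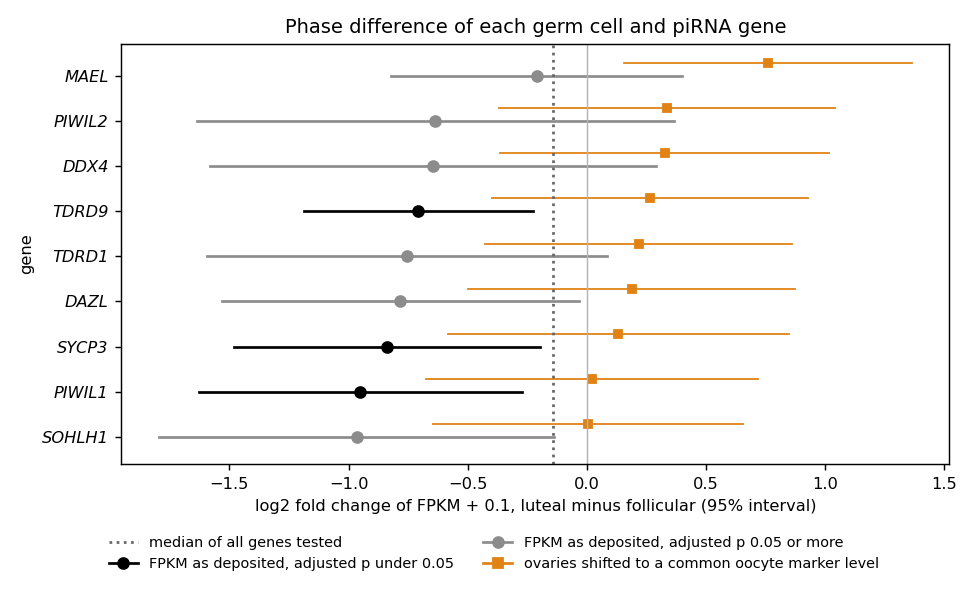
Log2 fold change of FPKM + 0.1, luteal minus follicular, with its 95% interval for each of the 9 genes. Circles are the deposited FPKM, filled black for an adjusted p under 0.05 (TDRD9, SYCP3 and PIWIL1) and grey otherwise, and orange squares the same fit after each ovary was shifted to a common oocyte marker level, where all 9 values lie between 0.0052 and 0.76; the dotted line is the median of all genes as deposited.

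TDRD9 and TDRD1 are Tudor domain genes. TDRD9 (XM_018065936.1), a Tudor domain protein with a helicase domain needed for transposon silencing in germ cells, had FPKM of 0.856, 0.549, 1.22, 0.901 and 1.05 in follicular phase ovaries 1 to 5. In luteal phase ovaries 1 to 5 it had 0.360, 0.420, 0.630, 0.583 and 0.588. Only follicular phase ovary 2 lay inside the luteal range, and the other 4 follicular phase ovaries were above every luteal phase ovary. The luteal mean was 0.516 ± 0.118 and the follicular mean 0.917 ± 0.251 FPKM (SD, n = 5 each). On the log2 scale the change was -0.71 with a standard error of 0.22 (limma adjusted p = 0.0228). The adjusted p by limma was 0.0579 without follicular phase ovary 3, 0.0514 without luteal phase ovary 1, 0.0508 without luteal phase ovary 2 and 0.0622 on the TPM scale. In these settings the log2 fold change ran from -0.66 (TPM scale) to -0.60 (without follicular phase ovary 3).

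TDRD1 (XM_018041107.1), a scaffold that binds methylated PIWI proteins, had FPKM of 1.90, 0.631, 0.717, 0.590 and 1.85 in the follicular phase. In the luteal phase it had 0.442, 0.658, 1.02, 0.272 and 0.590. Follicular phase ovaries 1 and 5 stood above all the others, and the remaining 3 lay within the luteal range. The log2 fold change was -0.75, with a 95% interval from -1.59 to 0.09 and a limma adjusted p of 0.131. Both signs therefore remained within the interval, and the difference between TDRD1 and TDRD9 was not tested.

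The PIWI genes encode the Argonaute family proteins that bind piRNAs. PIWIL1 (XM_005691338.2) had FPKM of 0.360, 0.225, 0.202, 0.294 and 0.475 in follicular phase ovaries 1 to 5. In the luteal phase the values were 0.00960, 0.130, 0.262, 0.108 and 0.0997. Luteal phase ovary 3 reached into the follicular range, the other 4 luteal phase ovaries were below every follicular phase ovary, and ovary 1 was far below them all. The means were 0.122 ± 0.0908 and 0.311 ± 0.110 FPKM, the log2 fold change was -0.95 (standard error 0.31, limma adjusted p = 0.0278), and the gene is the least abundant of the set. Its log2 fold change was -1.63 at a pseudocount of 0.01 and -0.22 at 1, and luteal phase ovary 1 lies under the pseudocount of 0.1. The adjusted p by limma rose to 0.0611 without follicular phase ovary 1, 0.0642 without follicular phase ovary 5, 0.0521 without luteal phase ovary 1, 0.0528 without luteal phase ovary 4 and 0.0539 without luteal phase ovary 5. In these fits the log2 fold change ran from -0.95 (without luteal phase ovary 4) to -0.72 (without luteal phase ovary 1).

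PIWIL2 (XM_018052836.1) had FPKM of 0.533, 1.38, 0.705, 0.420 and 1.39 in the follicular phase and 0.412, 0.464, 1.29, 0.127 and 0.611 in the luteal phase. The highest luteal value was 10.2 times the lowest, and the phases overlapped over most of their range. Luteal phase ovary 3 was nearly as high as follicular phase ovaries 2 and 5. The log2 fold change was -0.64 (95% interval -1.64 to 0.37, limma adjusted p = 0.278). It was -0.30 without luteal phase ovary 4 and -0.95 without luteal phase ovary 3.

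MAEL (XM_018046604.1) overlapped widely between the phases. Its FPKM was 2.23, 2.42, 2.53, 2.13 and 4.48 in the follicular phase and 3.30, 1.74, 3.80, 1.66 and 1.67 in the luteal phase. Follicular phase ovary 5 stood apart from the other 4 of its phase, and the luteal phase ovaries formed a low group of 3 and a high group of 2. The log2 fold change was -0.21 (95% interval -0.82 to 0.40, limma adjusted p = 0.562). It was -0.03 without follicular phase ovary 5 and -0.39 without luteal phase ovary 3.

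DDX4 and DAZL are the most widely used markers of germ cells. DDX4 (XM_005694694.3), the RNA helicase known as VASA, had FPKM of 1.28, 0.333, 0.441, 0.288 and 1.48 in the follicular phase. In the luteal phase it had 0.278, 0.244, 0.625, 0.252 and 0.536. Follicular phase ovaries 1 and 5 stood far above every other ovary, and the remaining 3 lay in the luteal range. The follicular mean, 0.764 ± 0.569 FPKM, was 1.97 times the luteal mean, 0.387 ± 0.180, yet the log2 fold change of -0.65 had a 95% interval from -1.58 to 0.29 (limma adjusted p = 0.238). The value was -0.41 without follicular phase ovary 1 and -0.36 without follicular phase ovary 5. Without both, an alternative chosen after seeing the data, it was 0.041 (limma adjusted p = 0.927).

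DAZL (NM_001314241.1), an RNA-binding protein that promotes translation of germ cell mRNAs, had FPKM of 0.489, 0.291, 0.423, 0.212 and 0.763 in the follicular phase. In the luteal phase it had 0.101, 0.261, 0.352, 0.0742 and 0.278. Luteal phase ovaries 1 and 4 were lower than every other ovary, and the 3 highest values were follicular. The log2 fold change was -0.78 (95% interval -1.53 to -0.03, limma adjusted p = 0.0833), and the adjusted p was 0.0484 without follicular phase ovary 4.

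SOHLH1 (XM_018054742.1), a transcription factor needed for primordial follicles to begin growth, had FPKM of 2.13, 0.764, 1.19, 0.635 and 3.04 in the follicular phase. Its luteal values were 0.617, 0.595, 0.828, 0.387 and 0.791. Follicular phase ovaries 1, 3 and 5 were above every luteal phase ovary. The log2 fold change was -0.97 (95% interval -1.80 to -0.14, limma adjusted p = 0.0577). The adjusted p by limma was 0.0497 under quantile normalization, 0.0331 without follicular phase ovary 2 and 0.0233 without follicular phase ovary 4.

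SYCP3 (XM_018048175.1), a component of the lateral elements that line paired chromosomes in meiosis, had FPKM of 0.371, 0.248, 0.186, 0.262 and 0.617 in the follicular phase. In the luteal phase it had 0.0624, 0.0796, 0.135, 0.187 and 0.238. Only follicular phase ovary 3 lay inside the luteal range. The means were 0.140 ± 0.0733 FPKM in the luteal and 0.337 ± 0.170 FPKM in the follicular phase, and the log2 fold change was -0.84 (standard error 0.29, limma adjusted p = 0.0375). Of the 3 calls it was lost under the most settings, with limma adjusted p-values of 0.0546 at a pseudocount of 1, 0.0552 with equal medians, 0.0645 as TPM and 0.0728 under quantile normalization. It was also lost without follicular phase ovary 1 (0.0787), 4 (0.0513) or 5 (0.0810) and without luteal phase ovary 1 (0.0819), 2 (0.0815) or 3 (0.0584), all adjusted p by limma. In these fits without 1 ovary its log2 fold change ran from -0.89 to -0.64.

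When single transcripts of all classes were tested instead of genes, 0 of the 9 transcripts passed an adjusted p under 0.05 by limma, against 17.3% of all 32842 transcripts tested (9.82% called higher in the follicular phase), and 4 of 9 had an unadjusted p under 0.05. The lowest adjusted p was 0.0789. The FPKM values are the same as in the gene test, where 5 of 9 had an unadjusted p under 0.05 by limma. The unadjusted p-values and the number of features to adjust over thus both differ, and their parts in the lost calls were not tested.

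The same few ovaries were high for most of the set. Follicular phase ovary 5 was the highest of its phase for 7 of 9 genes and among the top 2 for all 9, and follicular phase ovary 1 was among the top 2 for 6. Follicular phase ovary 4 was the lowest of its phase for 6 genes. In the luteal phase, ovary 3 was the highest for 8 of 9 genes, and ovary 4 was the lowest for 5. Summed over the 9 genes, FPKM ran from 5.73 to 15.2 in the follicular phase and from 3.65 to 8.94 in the luteal phase. The highest sum in each phase came from its shallowest library, follicular phase ovary 5 and luteal phase ovary 3, and the part of depth in these sums was not tested. Follicular phase ovary 1, with the second highest sum, 10.1, was among the deepest.

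An oocyte marker level was computed for each ovary as the mean log2(FPKM + 0.1) of the 16 oocyte genes that were tested. It was 1.17 ± 0.38 in the follicular and 0.20 ± 0.39 in the luteal phase (SD, n = 5 each). The ranges, 0.781 to 1.63 and -0.165 to 0.754, narrowly did not overlap. Summed FPKM of the oocyte markers overlapped, at 52.4 to 110 in the follicular and 53.8 to 141 in the luteal phase. UCHL1 was the most abundant of them, with a mean of 52.7 FPKM. The oocyte marker level, a mean of log values, gives each of the 16 genes equal weight. With phase means removed, TDRD1 followed this level most closely (Pearson's r = 0.876, exact permutation p = 0.00535, adjusted over 9 relations 0.0481, n = 10; Spearman's rho = 0.735, exact permutation p = 0.0358, adjusted 0.143). Without the 2 ovaries farthest from the median level, follicular phase ovary 5 and luteal phase ovary 5, its r was 0.951. For DAZL r was 0.733, for PIWIL1 0.728, for SOHLH1 0.704 and for DDX4 0.694, each with an adjusted exact permutation p of 0.0780. Without the same 2 ovaries these 4 genes had r of 0.886, 0.714, 0.780 and 0.814. MAEL (0.570, and 0.290 without the 2 ovaries), PIWIL2 (0.546), SYCP3 (0.287) and TDRD9 (0.082) had adjusted exact permutation p-values of 0.159 to 0.835. For rho the adjusted exact permutation p was 0.143 for 7 genes, 0.684 for SYCP3 and 0.964 for TDRD9. Of the 3 genes that fell in the luteal phase, PIWIL1 thus had an r among the higher ones of the set, and SYCP3 and TDRD9 had the lowest.

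**Figure D3:**
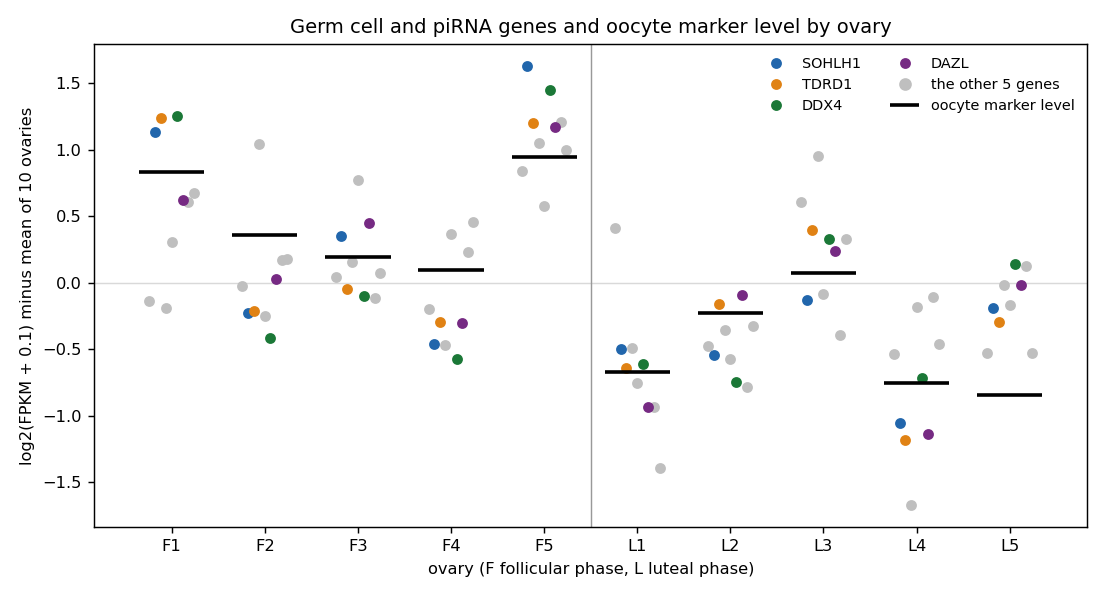
Log2(FPKM + 0.1) of each gene in each ovary, minus the mean of that gene over 10 ovaries; colours mark SOHLH1, TDRD1, DDX4 and DAZL, grey the other 5 genes, and black bars the oocyte marker level treated the same way. Follicular phase ovaries 1 and 5 and luteal phase ovary 3 have the highest oocyte marker levels of their phases (1.52, 1.63 and 0.75 before the mean was subtracted).

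When the log values of every ovary were shifted to a common oocyte marker level, a scaling chosen after seeing the data, the median of all genes moved from -0.14 to 0.83. The same 0.97 was added to the log2 fold change of every gene, so a change of sign was fixed for any gene between -0.97 and 0 and says nothing of the 9 genes in particular. The log2 fold changes of the 9 genes then lay between 0.0052 (SOHLH1) and 0.76 (MAEL), all below the new median of all genes. Of the 9 genes MAEL alone passed the test (standard error 0.30, limma adjusted p = 0.0250), where 66.8% of all genes did. Relative to the oocyte markers, SOHLH1 differed by 0.0052 (95% interval -0.65 to 0.66), PIWIL1 by 0.022 (-0.68 to 0.72) and DDX4 by 0.33 (-0.36 to 1.02). These intervals leave room for changes of either sign.

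The likeness of each gene to the rest of the set was described by Pearson's r over 10 ovaries. It was taken between the phase-centred log2 level of the gene and the mean of the other 8 genes. Within an ovary all genes share 1 library and its depth, and depth differed between ovaries. DAZL (0.898), DDX4 (0.892), TDRD1 (0.886) and SOHLH1 (0.876) were most alike. PIWIL1 (0.652), SYCP3 (0.541), PIWIL2 (0.541), MAEL (0.525) and TDRD9 (0.347) followed less closely. Outside the set, the 8 genes of 15359 with the pattern most like its mean were LOC102187765 (r = 0.983), SMC1B (0.975), NOBOX (0.971), ZGLP1 (0.968), MOS (0.967), SKOR1 (0.966), RSPO2 (0.965) and FMR1NB (0.964). SMC1B is a subunit of the meiotic cohesin, NOBOX an oocyte transcription factor and MOS the kinase that holds mature oocytes in meiotic arrest. They were chosen for this likeness, and no test was made on it. Of the 100 genes most alike, 4 were among the 16 tested oocyte markers, 2 among the 16 other piRNA pathway genes, 2 among the 13 germ cell regulators and 1 among the 21 meiosis genes. The lists of other cell types, with 2 to 11 tested genes each, had 0. With 100 of 15359 genes chosen, lists this small can hold 0 by their size alone, so this is no contrast. The median r was 0.72 for the germ cell regulators, 0.62 for the oocyte markers (range -0.43 to 0.97), 0.56 for the other piRNA pathway genes and 0.47 for the meiosis genes. It was 0.43 for the endothelium and 0.40 for the stroma markers, and 0.15 for all genes.

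Other piRNA pathway genes were read from a list of companions. Of 20 listed, 16 were tested, 2 rose in the luteal phase and 0 fell at an adjusted p under 0.05 by limma, with 5 at an unadjusted p under 0.05. Their median log2 fold change was -0.17 (0.81 at a common oocyte marker level, where all genes had 0.83), near the -0.14 of all genes, and 12.5% were called where 43.7% of all genes were. ASZ1, a mitochondrial scaffold protein of the pathway, had 1.88 ± 0.705 FPKM in the luteal and 0.519 ± 0.136 FPKM in the follicular phase (SD, n = 5 each). Its log2 fold change was 1.64 (standard error 0.24, limma adjusted p = 3.10e-04), and every luteal phase ovary was above every follicular phase ovary. TDRKH, a Tudor domain protein of mitochondria that helps trim piRNA ends, rose from 0.728 ± 0.160 to 1.13 ± 0.249 FPKM (log2 fold change 0.57, limma adjusted p = 0.0324). GTSF1, a zinc finger partner of PIWI proteins, was at 1.86 ± 1.13 in the luteal and 4.19 ± 2.53 FPKM in the follicular phase (log2 fold change -1.15, limma adjusted p = 0.0599). TDRD7, the most abundant gene of the list, was at 8.30 ± 0.860 and 7.28 ± 0.595 FPKM (limma adjusted p = 0.138). PIWIL4, MOV10L1 and SPOCD1 were below the filter. The count of 2 became 1 without follicular phase ovary 3, follicular phase ovary 4 or luteal phase ovary 4, and 4 without luteal phase ovary 3, where 3 genes were called lower in the luteal phase.

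Of 29 other meiosis genes, 21 were tested, and 5 fell and 1 rose in the luteal phase, 28.6% in all against 43.7% of all genes. Their median log2 fold change was -0.44 (0.53 at a common oocyte marker level). The split depended on scaling: 3 fell and 3 rose on the TPM scale, and 3 fell and 2 rose under both median and quantile scaling. The split of all 15359 genes moved as well. As deposited 4272 fell and 2439 rose, against 2610 and 2884 on the TPM scale, 3055 and 2910 under median and 3746 and 2687 under quantile scaling. HFM1, a helicase that promotes crossovers, fell from 10.9 ± 1.19 to 4.07 ± 1.18 FPKM (log2 fold change -1.44, standard error 0.19, limma adjusted p = 1.73e-04) with no overlap. SPATA22, which takes part in meiotic recombination, fell from 0.430 ± 0.118 to 0.133 ± 0.0546 FPKM (-1.19, limma adjusted p = 0.00217). TEX11, also a crossover factor, went the other way, at 1.76 ± 0.671 in the luteal and 0.729 ± 0.191 FPKM in the follicular phase (1.13, limma adjusted p = 0.00305). YTHDC2, a widely expressed RNA helicase needed for entry into meiosis, was the most abundant, with 15.7 ± 0.867 and 13.7 ± 1.73 FPKM (0.20, limma adjusted p = 0.0919). SPO11, which makes the breaks that start meiotic recombination, and DMC1, the recombinase of strand exchange, were below the filter, and TERB2 was listed at 0 in every ovary.

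Of 20 other germ cell regulators, 13 were tested, and 5 fell and 2 rose in the luteal phase, 53.8% in all against 43.7% of all genes. Their median log2 fold change was -0.73 (0.24 at a common oocyte marker level). Without follicular phase ovaries 1 and 5, 1 fell and 1 rose, where 33.2% of all genes were called. The strongest change was in KIT, the receptor tyrosine kinase of oocytes, which also occurs on other cell types. It rose from 11.9 ± 0.918 to 73.9 ± 17.2 FPKM (log2 fold change 2.59, standard error 0.14, limma adjusted p = 2.29e-07). LSM14B, a protein of oocyte RNA granules, fell from 25.4 ± 2.70 to 19.8 ± 1.65 FPKM (-0.36, limma adjusted p = 0.00660). DND1, which protects germ cell mRNAs, fell from 2.12 ± 0.305 to 1.32 ± 0.296 FPKM (-0.67, limma adjusted p = 0.0111). Below the filter were NANOS2, NANOS3, PRDM14, TFAP2C, LIN28A and LIN28B, most of them known as regulators of primordial germ cells.

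Among 20 oocyte markers, 16 were tested, and 12 fell and 0 rose in the luteal phase, 75.0% against the 27.8% of all genes called in that direction. Their median log2 fold change was -0.99, and -0.02 by construction at a common oocyte marker level. Without follicular phase ovaries 1 and 5, 6 fell and 1 rose. BMP15, a growth factor secreted by oocytes, fell from 1.45 ± 0.307 to 0.436 ± 0.124 FPKM (-1.55, standard error 0.21, limma adjusted p = 1.90e-04). KPNA7, an oocyte importin, fell from 2.02 ± 0.447 to 0.646 ± 0.220 FPKM (-1.53, limma adjusted p = 3.97e-04). GDF9, the oocyte growth factor related to BMP15, fell from 3.50 ± 0.790 to 1.80 ± 0.274 FPKM (-0.91, limma adjusted p = 0.00125). UCHL1, a ubiquitin hydrolase also found in neurons, was the exception in direction, at 67.1 ± 29.5 in the luteal and 38.4 ± 14.5 FPKM in the follicular phase (limma adjusted p = 0.0632). OOSP2 and RFPL4A were listed at 0 in every ovary. The difference between the oocyte markers and the set of 9 genes was not tested.

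**Figure D4:**
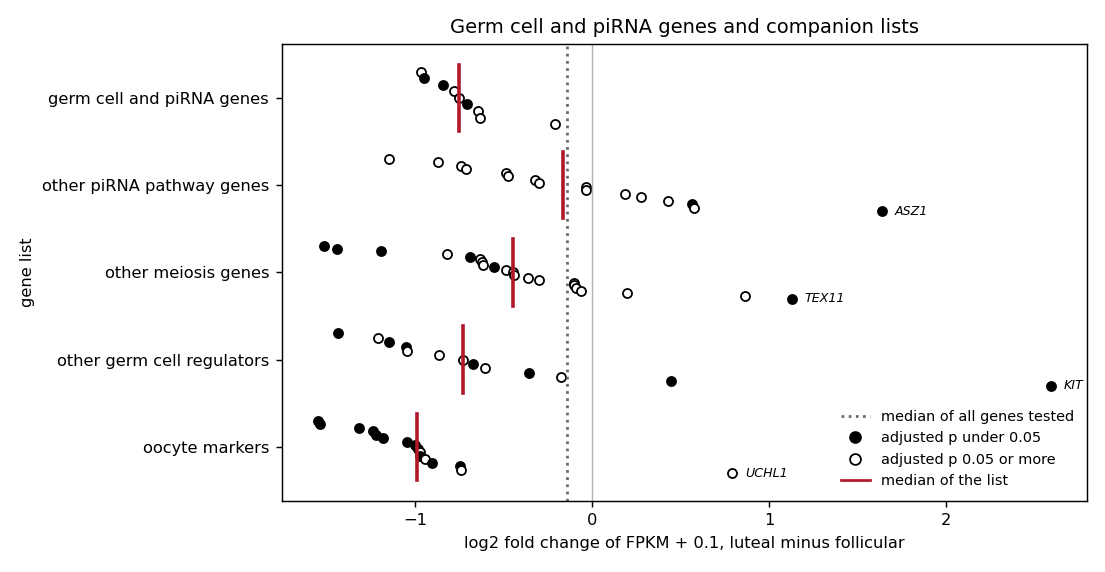
Log2 fold change of FPKM + 0.1, luteal minus follicular, of every tested gene in the set and in 4 companion lists; filled points have an adjusted p under 0.05, red bars are list medians and the dotted line is the median of all genes. The set of 9 and the oocyte markers have medians of -0.75 and -0.99, while the other piRNA pathway genes center on -0.17, with ASZ1 at 1.64; these directions hold for the FPKM as deposited.

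Markers of other ovarian cells moved between the phases as well, to be read against the 27.8% of all genes that fell and the 15.9% that rose in the luteal phase. Theca cell markers fell in the luteal phase (2 of 2), as did 6 of 11 granulosa cell markers (1 rose) and 5 of the 7 tested ciliated epithelium markers (1 rose). Endothelium markers rose (7 of 7), while of 9 stroma markers 3 rose and 3 fell, and of 7 leukocyte markers 1 rose. The summed FPKM of the granulosa cell list was 695 to 2003 in the follicular and 450 to 1237 in the luteal phase, of the theca cell list 139 to 202 and 17.1 to 69.2, and of the endothelium list 120 to 148 and 240 to 313. For the corpus luteum list it was 140 to 201 and 5963 to 8187. Summed FPKM of the stroma list ran from 2670 to 3786 and from 3395 to 5688, of the leukocyte list from 46.3 to 94.5 and from 81.6 to 97.1, and of the ciliated epithelium list from 3.80 to 5.03 and from 2.38 to 2.82. Among the ciliated epithelium markers PIFO was listed at 0 in every ovary, and FOXJ1 was below the filter. The part of these cell types in the values of the 9 genes was not tested.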

How the data were processed

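The authors mapped each ovary's reads by HISAT2, used StringTie for transcript assembly and obtained the deposited FPKM from Cuffdiff, without pooling ovaries. The genome build is not given in the sources used here. FPKM of protein-coding rows were summed by symbol and analysed as log2(FPKM + 0.1), a scale that understates changes of low genes. Genes with at least 0.1 FPKM in at least 5 of 10 ovaries were tested with limma (version 3.58.1, R 4.3.3; lmFit, eBayes with trend), luteal minus follicular, two-sided, with Benjamini-Hochberg adjustment over all genes tested. Cuffdiff's own test needs reads and was not used. The genes and lists were chosen with earlier results of these data known.

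Relations to the oocyte marker level used exact permutation within the phases (14400 arrangements). Outside the set, named genes were the 3 with the lowest adjusted p and the most abundant one of each companion list, and the 8 with the most similar pattern. CYP11A1 and CYP17A1 were matched through RefSeq synonyms. The fits and permutations were tested on simulated data. Relative depth was the ratio of FPKM between ovaries that the largest number of genes shared within 0.1%, among genes with 1 transcript and FPKM under 0.05. Against follicular phase ovary 1, from 13 to 30 of 394 to 732 genes compared shared it, and from 8 to 14 the next ratio. The ratios of the 45 pairs of ovaries deviated from those expected from follicular phase ovary 1 by at most 0.264%. Python 3.11.15 with scipy 1.17.1 was used. Promoters, proteins and the separate table of annotated lncRNAs were not analysed here. Alternatives were other pseudocounts and filters, median, quantile and TPM scaling, no variance trend, a replicate block, the separate mRNA table and leaving out each ovary. All 9 genes of the set entered the limma test, so the exact test held ready for genes below the filter was not needed.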

Additional observations from a re-analysis of the deposited data

Results flagged for a closer look

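Single ovaries stood apart from the other 4 of their phase in 4 of 48 groups examined (24 named genes in 2 phases), where chance flags about 1 in 20. MAEL was at 4.48 FPKM in follicular phase ovary 5, against 2.13 to 2.53 in the others. ASZ1 was at 3.09 FPKM in luteal phase ovary 4, against 1.27 to 1.75. TEX11 was also high in luteal phase ovary 4, at 2.92 FPKM against 1.32 to 1.72. LSM14B was at 30.1 FPKM in follicular phase ovary 2, against 23.4 to 24.9.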

How the results depend on the processing

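In all settings but the 2 added after seeing the data, the 9 genes kept their direction in 176 of 176 fits, with the same side of the threshold in 150, a lost call in 20 and a gained call in 6. The count of genes called in the set was 3, and it was 1 on the TPM scale and 1 with at least 0.5 FPKM in 5 ovaries, where 5 of the 9 genes were tested. Leaving out 1 ovary gave from 0 to 4. For the other piRNA pathway genes, 2 were called, against 1 with no filter and 5 after quantile normalization, and from 1 to 4 with 1 ovary left out. Leaving out 1 ovary gave from 4 to 8 meiosis genes, 5 to 10 germ cell regulators, 10 to 13 oocyte markers and 0 to 1 transcripts of the set. The separate mRNA table gave the same counts for the set and the 4 companion lists of genes, and was not used for transcripts. Over all genes, 2439 of 6711 calls were luteal-higher, a share that became 48.8% with equal medians, 41.8% under quantile normalization and 52.5% as TPM.

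The next 2 settings were chosen after seeing the data. A shift to a common oocyte marker level adds 0.97 to every log2 fold change, so signs turn by construction. It called 66.8% of all genes, 99.4% of them luteal-higher, with 1 in the set, 8 other piRNA pathway genes, 7 meiosis genes (all luteal-higher), 3 germ cell regulators and 1 oocyte marker. The log2 fold changes became positive for DDX4 (0.33), DAZL (0.19), MAEL (0.76), PIWIL1 (0.022), PIWIL2 (0.34), TDRD1 (0.22), TDRD9 (0.27), SYCP3 (0.13) and SOHLH1 (0.0052). Without follicular phase ovaries 1 and 5, limma called 33.2% of all genes, 0 genes of the set (1 at an unadjusted p under 0.05), 2 germ cell regulators and 7 oocyte markers. The log2 fold changes of TDRD9, PIWIL1 and SYCP3, called with all ovaries, were then -0.65, -0.71 and -0.51. DDX4 turned to 0.041, and the rest ran from -0.56 (PIWIL2) to -0.045 (MAEL).

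Replicate numbers were not taken to pair the ovaries, because same-numbered ovaries had correlations of deviations from 0.03 to 0.20, only 2 of the 5 above 0.1. As a hint the other way, all 5 were positive and 5 of 10 ovaries correlated best with their own number. With the replicate number as a block, 4 genes of the set were called, where PIWIL1 was lost (limma adjusted p = 0.0604) and DAZL (0.0470) and SOHLH1 (0.0234) were gained. Fragment counts per gene are unknown, so counting error at these low FPKM could not be given.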
